A study of Bubalus bubalis with 12 samples.

Results

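The genes described here code for the channels through which urea, ammonia and water cross cell membranes: the urea transporter SLC14A1, the aquaporins AQP1, AQP3, AQP4, AQP5, AQP7, AQP9 and AQP11, and the Rh glycoproteins RHBG and RHCG. They were taken by symbol from the deposited table, in which all 10 were found among 34037 genes. Their RNA was measured in frozen rumen wall from 12 Italian Mediterranean dairy buffaloes (*Bubalus bubalis*), with 1 library of total RNA per animal and no pooling of animals. The 6 control animals received a total mixed ration (TMR), and the 6 treated animals received a TMR with 30% green feed, which was freshly cut ryegrass. All 12 were milking cows of one commercial dairy, and both rations were balanced to supply the same nitrogen and energy.

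In ruminants, urea made in the liver returns from the blood to the rumen, where microbes release its nitrogen as ammonia, and the ammonia that is not built into microbial protein is taken up across the same epithelium. The urea transporter UT-B, which SLC14A1 encodes, carries urea down its gradient, and Rh glycoproteins do the same for ammonia. Aquaporins pass water, and the aquaglyceroporins among them (AQP3, AQP7 and AQP9) also pass glycerol and, to a varying degree, urea.

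Values are FPKM, the fragments counted for a gene scaled by its length and by the counted fragments of the animal, so that levels can be set side by side between genes. The libraries held between 10531468 and 12948299 counted fragments, and 17766 to 18766 genes were above 0 in an animal. All 12 housekeeping genes looked up were above 0 in every animal. Markers of the basal layer of a stratified squamous epithelium were abundant, with a median of 1607 FPKM for KRT5, while the summed level of 9 smooth muscle genes lay between 15.4 and 50.4 FPKM. In a piece of tissue such as this, fewer cells of a type and less RNA per cell cannot be told apart. The reads behind each FPKM were worked out from the table, and values of at most 3 reads are taken as being at the floor, which covers counting error only.

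The 10 genes fell into a detected and a nearly silent set. AQP5, AQP3, SLC14A1, AQP1 and RHBG had more than 3 reads in every animal, whereas AQP4, AQP7, AQP9, AQP11 and RHCG were at or under the floor in at least 10 of 12 animals. Of the detected genes, RHBG alone did not reach 42 depth-scaled reads in any animal, the minimum for the test across genes, so that 4 of the 10 genes were tested and 6 were not. AQP5 held between 68.4% and 82.1% of the reads of the 10 genes in an animal.

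**Figure D1:**
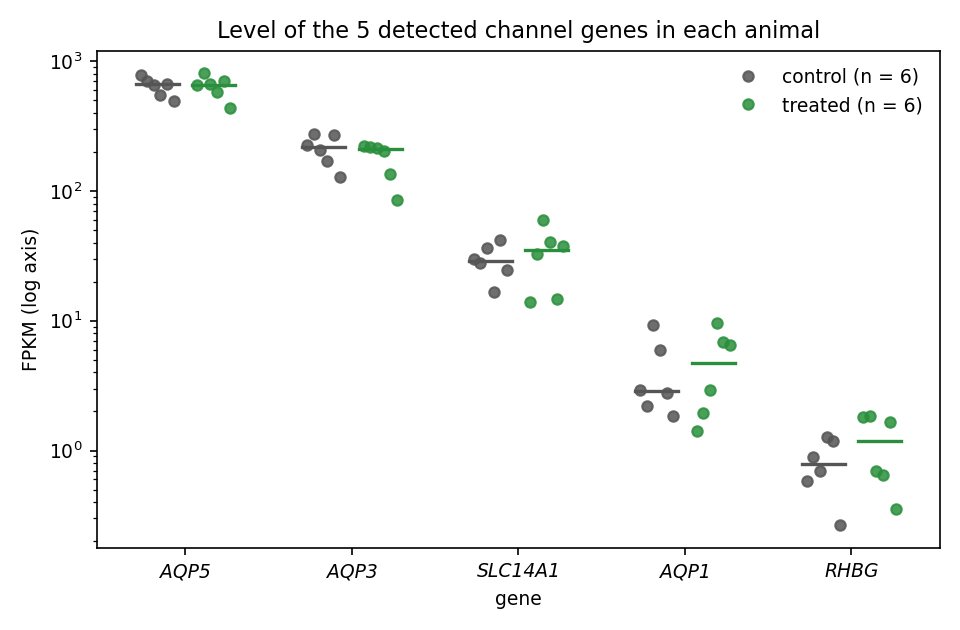
FPKM on a log axis of the 5 channel genes with more than 3 reads in every animal, with 1 point per animal, 6 control (grey) and 6 treated (green), and a line at the median of each group. AQP5 lies highest, with all 12 animals between 433 and 805 FPKM, and RHBG lowest, between 0.266 and 1.86 FPKM, and the groups overlap for every gene.

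AQP5, a water channel best known from the secretory cells of salivary and lacrimal glands and from the lung, was the most abundant of them. Its level in control animals ran from 494 to 782 FPKM with a median of 666, and in treated animals from 433 to 805 FPKM with a median of 660. The lowest animal of each group was replicate 6, and the groups overlapped over nearly their whole range. Between 10993 and 20779 reads stood behind these values, which made AQP5 the gene of rank 96 to 194 by FPKM within an animal and 0.0916% to 0.17% of all counted fragments. The group means, with 6 animals each, were 644 ± 105 FPKM (control, SD) and 639 ± 125 FPKM (treated, SD). Its log2 fold change, treated minus control, was -0.019 (SE 0.16), and the 95% interval of the fold ran from 0.777 to 1.25 (limma p = 0.908, adjusted p = 0.9997, two-sided exact permutation p = 0.911).

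Genes of glands were close to 0 in the same libraries. Of 6 markers of glandular, ciliated or secretory epithelium (MUC5B, MUC5AC, TFF3, FOXJ1, BPIFA1 and LTF) none reached the read minimum, FOXJ1 was at 0, and the summed level of the 6 was at most 2.1 FPKM. In the RefSeq annotation of the assembly NDDB_SH_1, AQP5 (gene 102399102) stands under a LOC symbol between the gene that the deposited table calls AQP2 and AQP6. The levels of these neighbours were a small part of that of AQP5. AQP2, the vasopressin-regulated water channel of the kidney, had 0.706 to 2.98 FPKM, with a median of 0.2% of the AQP5 level in the same animal. AQP6, an intracellular channel of the kidney, had 4.94 to 9.61 FPKM, with a median of 1.15% of the AQP5 level.

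AQP3 (gene 102415175), an aquaglyceroporin of basal keratinocytes in skin and of other stratified epithelia, followed. Its control values ran from 128 to 274 FPKM with a median of 217, and its treated values from 84.6 to 222 FPKM with a median of 209. In both groups replicate 6 was again the lowest animal. Of the treated animals, 4 lay between 203 and 222 FPKM, while replicates 5 and 6 were at 134 and 84.6 FPKM. The means were 212 ± 56.8 and 179 ± 56.8 FPKM (SD, n = 6 each), and the difference was smaller than the spread between animals. The log2 fold change was -0.27 (SE 0.26), with an interval of the fold from 0.566 to 1.21 (limma p = 0.302, adjusted p = 0.9997, exact permutation p = 0.377).

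AQP1 (gene 102393519), a water channel of vascular endothelium and red blood cells, was a low and variable gene. The control animals ran from 1.84 to 9.26 FPKM with a median of 2.85, and the treated animals from 1.41 to 9.55 FPKM with a median of 4.75. Control replicates 3 and 4 and treated replicates 4, 5 and 6 were above 5 FPKM, and the other 7 animals were below 3 FPKM, so that both levels occurred under both diets. The highest animal had 6.79 times the level of the lowest, with 47 to 335 reads behind the values. With means of 4.16 ± 2.9 and 4.88 ± 3.25 FPKM (SD, n = 6 each), the log2 fold change was 0.16 (SE 0.51) and the interval of the fold ran from 0.523 to 2.38 (limma p = 0.76, adjusted p = 0.9997, exact permutation p = 0.788). Of 4 red cell markers in the table, ALAS2 and SLC4A1 were listed at 0 in all 12 animals, HBA1 had 2 reads and AHSP 67 reads in all, and their summed level was at most 0.722 FPKM.

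SLC14A1 (gene 102414997), the urea transporter, ranged from 16.6 to 41.7 FPKM in control animals, with a median of 28.8. In treated animals it ranged from 14 to 59.5 FPKM, with a median of 34.9. Treated replicates 1 and 5 were the lowest of all 12 animals, at 14 and 14.8 FPKM, and treated replicate 3 was the highest. The other 3 treated animals lay between 32.4 and 40.4 FPKM, inside the range of the control animals. Means were 29.4 ± 8.78 FPKM and 33.1 ± 17.1 FPKM (SD, n = 6 each). The log2 fold change was 0.041 (SE 0.34), with an interval of the fold from 0.62 to 1.71 (limma p = 0.906, adjusted p = 0.9997, exact permutation p = 0.911). Its paralogue SLC14A2, which codes for the urea transporters of the kidney tubule and is its neighbour in the RefSeq annotation, had 1 read in all 12 animals together.

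RHBG (gene 102412885), an ammonia channel of the basolateral membrane in kidney and liver, was present at a low level in each animal. The control animals had 5 to 29 reads, or 0.266 to 1.28 FPKM with a median of 0.792. The treated animals had 8 to 40 reads, or 0.352 to 1.86 FPKM with a median of 1.18. Treated replicates 1, 2 and 5 lay above all control animals, and the other 3 lay within the control range. The means were 0.816 ± 0.383 and 1.17 ± 0.678 FPKM (SD, n = 6 each). In the fit on all genes above 0, its log2 fold change was 0.43 (SE 0.5), with an interval of the fold from 0.643 to 2.84 (limma p = 0.399, adjusted p = 0.9998, exact permutation p = 0.42), an interval that holds both signs. RHCG, the apical ammonia channel of the kidney collecting duct, had 1 read in treated replicate 3 and 0 in the other 11 animals.

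Within an animal, the detected genes kept an order. AQP5 was above AQP3 in 12 of 12 animals, with a median ratio of 3.22 (range 2.51 to 5.21). AQP3 was above SLC14A1 in 12 of 12 animals, with a median ratio of 6.56 (range 2.26 to 15.8), and SLC14A1 was above AQP1 in 12 of 12 animals, with a median ratio of 10.1 (range 2.16 to 20.2). AQP1 was above RHBG in 11 of 12 animals, with a median ratio of 4.44 (range 0.771 to 18.6). The mean log2 difference between neighbours was 1.76 (SD 0.34), 2.70 (SD 0.74), 2.95 (SD 1.08) and 2.11 (SD 1.42) in this order. The 4 pairs were formed by sorting the genes on these same levels, so that the order is a description and no test is given.

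Among the nearly silent genes, AQP9 had the most reads. AQP9, an aquaglyceroporin of liver and of leukocytes, had 1 read in control replicate 4 and 0 in the other 5 controls. Among treated animals there were 11 reads in replicate 6, 5 in replicate 5, 1 each in replicates 1 and 4, and 0 in replicates 2 and 3. Thus 16 of its 19 reads, or 84.2%, came from treated replicates 5 and 6, and the highest value was 0.498 FPKM. In the fit on all genes above 0, where 2.45% of 22972 genes had a nominal p below 0.05 (1.18% higher and 1.27% lower in treated animals), its limma p was 0.042, with an adjusted p of 0.9998 and an exact permutation p of 0.0606. No fold is given, since the control animals were at the floor of 0.134 to 0.164 FPKM. The nominal p was above 0.05 in 12 of 19 alternatives to this fit, among them a pseudocount of 0.1, where limma gave 0.0572. It was also above 0.05 without any single one of control replicates 1, 2, 3, 5 and 6 and treated replicates 1, 4, 5 and 6, with limma p-values from 0.0671 (treated replicate 1) to 0.104 (treated replicate 5). Of 5 neutrophil markers, CXCR2 had a median of 3.03 FPKM, CSF3R 0.494 FPKM and MMP9 0.167 FPKM, with log2 fold changes of -0.42 (SE 0.48), 0.13 (SE 0.61) and 1.52 (SE 1.12), none with a nominal p below 0.05. The summed level of the 5, which was mostly that of S100A8 and S100A9, also expressed by squamous epithelium, was 4261 to 12252 FPKM in control and 2872 to 11991 FPKM in treated animals. The part of leukocytes in the AQP9 reads was not tested.

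AQP11, an aquaporin of intracellular membranes, had 1 read each in treated replicates 2, 3 and 5 and none in control animals (exact permutation p = 0.182). AQP7, the glycerol channel of adipocytes, had 1 read in control replicate 2 and 1 in treated replicate 5. Of 5 adipocyte markers, ADIPOQ and LEP were listed at 0 in all 12 animals, PLIN1 had 4 reads and CIDEC 168 reads in all, and FABP4, which capillary endothelium and macrophages also express, had a median of 69.2 FPKM. Their summed level was 38.4 to 247 FPKM in control and 45.1 to 111 FPKM in treated animals, and 1 was tested (FABP4, log2 fold change -0.39, SE 0.37). AQP4, the water channel of astrocytes and of skeletal muscle fibres, was listed at 0 in all 12 animals, with a depth at which 3 reads were 2.32e-05% to 2.85e-05% of the fragments of an animal. Of the 5 skeletal muscle markers in the table none reached the read minimum, with a summed level of 0.273 to 2.08 FPKM in control and 0.932 to 1.84 FPKM in treated animals. The floors for AQP11 ran from 0.0978 to 0.12 FPKM, for AQP7 from 0.0723 to 0.0889 FPKM and for RHCG from 0.0922 to 0.113 FPKM, so that levels below these were not detectable in an animal.

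**Figure D2:**
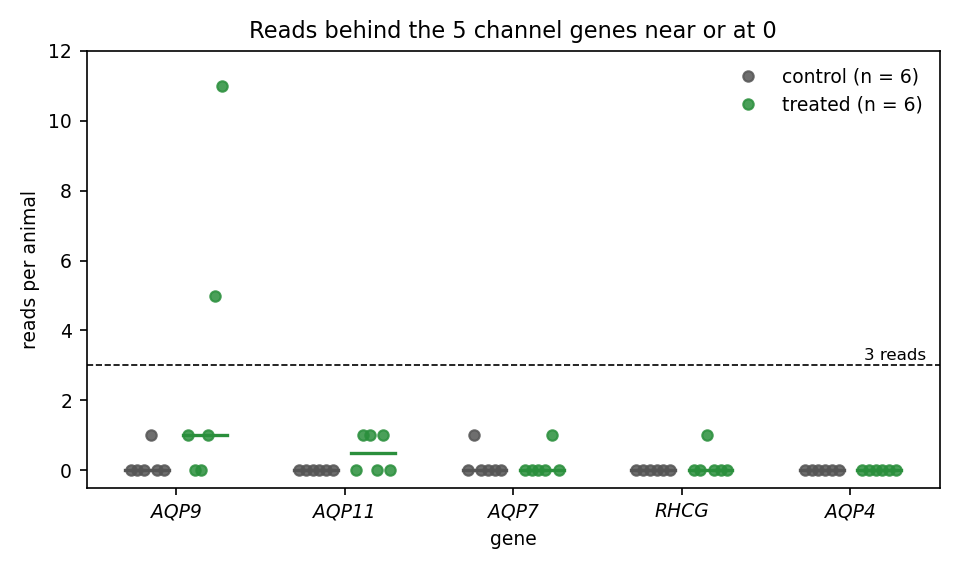
Reads per animal of the 5 channel genes near or at 0, with 1 point per animal, 6 control (grey) and 6 treated (green), a line at the group median and a dashed line at 3 reads. Only AQP9 in treated replicates 5 and 6, with 5 and 11 reads, lies above the dashed line.

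Whether green feed changed the RNA of these channels was asked with limma on log2(FPKM + 0.01). None of the 4 tested genes had a nominal p below 0.05, and none an adjusted p below 0.05. Of all 12620 genes tested, 156 or 1.24% had a nominal p below 0.05, of which 99 were higher (0.784%) and 57 lower (0.452%) in treated animals, and 0 had an adjusted p below 0.05 (0%). With voom on the reads, 141 genes had a nominal p below 0.05 and again 0 an adjusted one. The precision differed widely among the 4. The SD of log2 FPKM within groups was 0.28 for AQP5, at the percentile 32.9 of all tested genes, 0.5 for AQP3 (percentile 70.3), 0.68 for SLC14A1 (percentile 85.7) and 1.01 for AQP1 (percentile 95.2), beside a median of 0.36 over all tested genes. A change of 1.25-fold in AQP5 lies at the edge of its interval, whereas the interval of AQP1 holds both 0.523-fold and 2.38-fold.

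**Figure D3:**
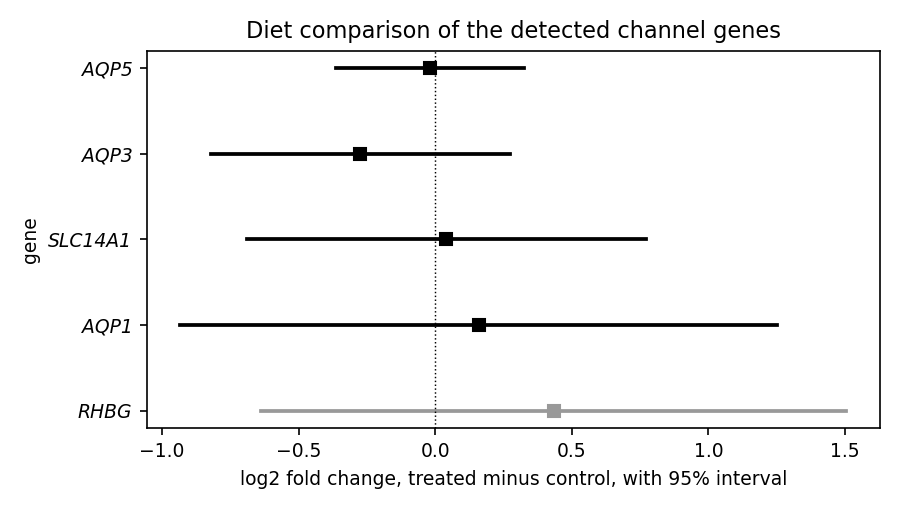
Log2 fold change of the detected channel genes, treated minus control (6 animals each), with 95% intervals from limma, for the 4 tested genes in black and for RHBG, from the fit on all genes above 0, in grey. All 5 intervals include 0, and they widen from AQP5 (-0.36 to 0.33) to AQP1 (-0.93 to 1.25).

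Smooth muscle and fibroblast markers were counted in the same fit. All 6 tested smooth muscle genes had negative log2 fold changes, with a median of -0.75, and DES (desmin) had a nominal p below 0.05 (log2 fold change -1.04, SE 0.42, limma p = 0.0271, adjusted p = 0.9997, exact permutation p = 0.0519). Summed over 9 genes, smooth muscle markers were at 28.5 to 50.4 FPKM in control and 15.4 to 40.1 FPKM in treated animals, with none of them at 0 in all animals. In the fit on all genes above 0, CNN1 and ACTG2, which did not reach the read minimum and had 0 reads in at least 1 animal, had nominal limma p-values of 0.0183 and 0.026, adjusted p-values of 0.9998 and an exact permutation p of 0.0238 each, with means in control and treated animals of 1.17 ± 0.487 and 0.399 ± 0.443 FPKM for CNN1 and of 0.851 ± 0.406 and 0.307 ± 0.273 FPKM for ACTG2 (SD). SMTN, the highest of the 9 by median FPKM, had means of 13.4 ± 4.98 and 13.5 ± 5.57 FPKM (SD). All 8 fibroblast genes likewise had negative log2 fold changes, with a median of -0.66, and none had a nominal p below 0.05. Endothelial, macrophage and neutrophil genes had median log2 fold changes of -0.11, -0.039 and -0.25, with 0 genes of nominal p below 0.05 among 9, 4 and 4 tested. The share with a nominal p below 0.05 was 1.24% of all tested genes and 2.45% of all genes above 0. At such shares, 0 is the usual count in lists this short. Genes of a list were measured in the same animals, so that a shared direction is not a set of independent results. A fall of these cell types under green feed was not tested. The summed level of the fibroblast genes was 48 to 283 FPKM in control and 19.8 to 181 FPKM in treated animals. With a score of the smooth muscle genes as a covariate, the log2 fold change was -0.028 for AQP5, -0.34 for AQP3, 0.35 for SLC14A1 and 0.77 for AQP1, with nominal limma p-values of at least 0.192. That of RHBG became -0.17, so that its direction depended on this term, with a nominal limma value of 0.762.

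The levels were then set against scores of 7 cell type marker lists over the 12 animals, each score being the mean of z-scored log2 FPKM. Of 28 pairs of a tested gene and a score, AQP5 and the basal epithelial score alone had an adjusted Pearson p below 0.05. For this pair r was 0.868 (permutation p = 0.00051, adjusted p = 0.0143), and Spearman's rho was 0.65 (permutation p = 0.0261, adjusted p = 0.243). Within the control animals r was 0.871 and within the treated animals 0.897. Control replicate 6 and treated replicate 6 had the lowest basal scores and the lowest AQP5, and without them r was 0.573. Of the 12 libraries, that of control replicate 6 had the fewest counted fragments (10531468). That of treated replicate 6 had the fewest genes above 0 (17766), with 12730019 counted fragments. The part of library quality in this relation was not tested. The basal score rests on KRT5, KRT15, TP63, COL17A1, ITGB4 and DST, of which 0 had a nominal p below 0.05 by diet, with a median log2 fold change of 0.08. All points share the scaling by counted fragments.

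**Figure D4:**
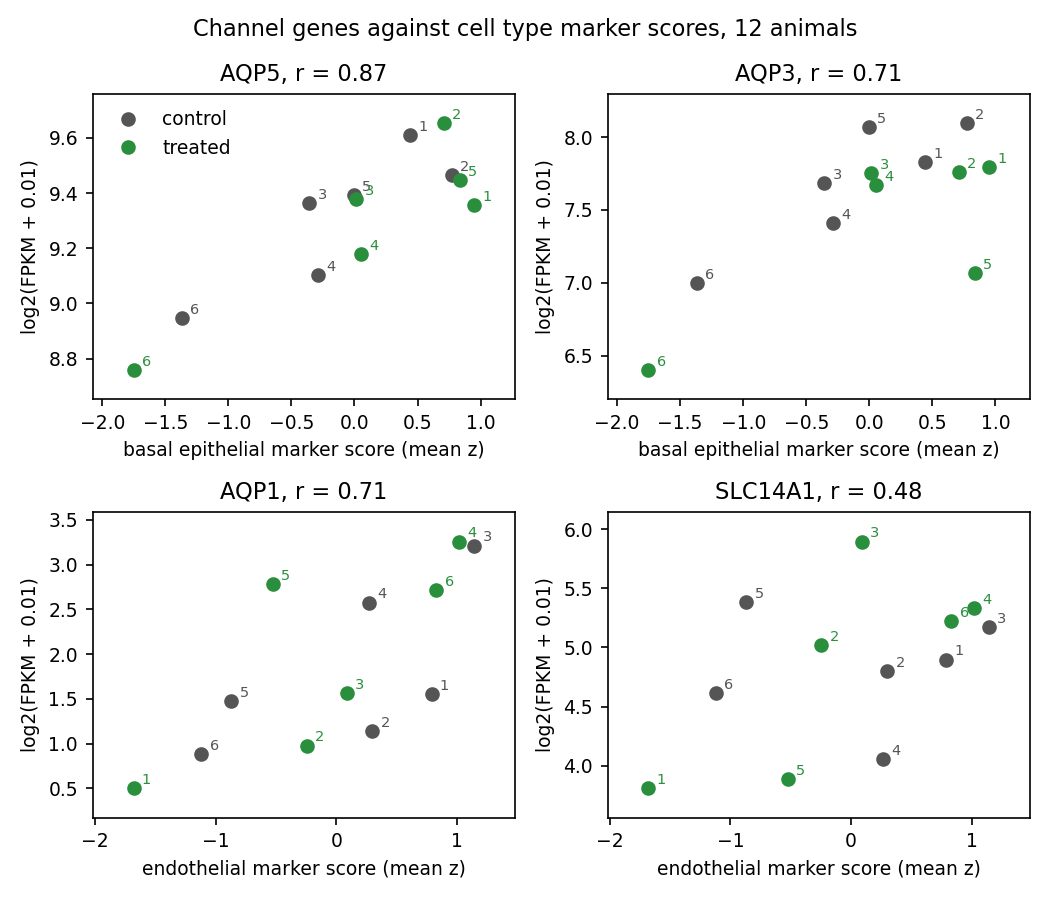
Log2(FPKM + 0.01) of AQP5 and AQP3 against the basal epithelial marker score and of AQP1 and SLC14A1 against the endothelial marker score, with 1 point per animal, numbered by replicate, 6 control (grey) and 6 treated (green). Replicate 6 of both groups lies at the lower left for AQP5 (r = 0.87) and AQP3 (r = 0.71), and the points of SLC14A1 are scattered (r = 0.48).

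AQP3 and the basal score gave r = 0.705 (permutation p = 0.0134, adjusted p = 0.0941) and rho = 0.538 (permutation p = 0.0755), but without control replicate 6 and treated replicate 6 r was 0.0087, so that this relation rests on those 2 animals. With the suprabasal score, from 9 genes of the differentiated layers, AQP3 had r = 0.626 (permutation p = 0.0291, adjusted p = 0.163), rho = 0.497 (permutation p = 0.104) and, without control replicate 6 and treated replicate 1, r = 0.579. AQP1 had r = 0.711 with the endothelial score (permutation p = 0.0111, adjusted p = 0.0941), 0.676 within control and 0.764 within treated animals, and rho was 0.741 (permutation p = 0.00762, adjusted p = 0.213). Its r with the fibroblast score was 0.69 (permutation p = 0.0129, adjusted p = 0.0941), with rho 0.608 (permutation p = 0.0401), and r was 0.485 without treated replicates 1 and 2. Without the 2 animals farthest from the median score, control replicate 6 and treated replicate 1, the r of AQP1 with the endothelial score was 0.513. SLC14A1 had its highest r, 0.482, with the endothelial score (permutation p = 0.115, rho 0.427 with permutation p = 0.171). This r was -0.00057 within control and 0.755 within treated animals, and 0.203 without control replicate 6 and treated replicate 1. The r of SLC14A1 with the basal score was -0.31.

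**Figure D5:**
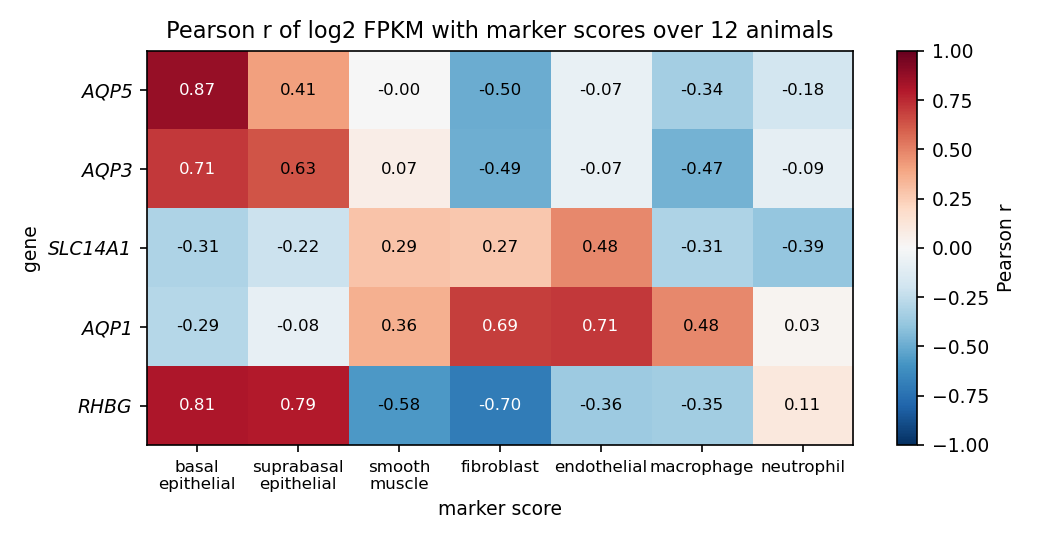
Pearson r over 12 animals between log2(FPKM + 0.01) of the 5 detected channel genes (rows) and the 7 marker scores (columns), from blue for -1 to red for 1. AQP5, AQP3 and RHBG have their highest r with the basal score (0.87, 0.71 and 0.81), and AQP1 with the endothelial score (0.71).

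The genes whose levels ran most like those of each channel were found among 11365 tested genes with a median of at least 1 FPKM, by Pearson's r of log2 FPKM over the 12 animals, as a description of these libraries. For AQP5 they were GMEB2 (r = 0.99), BRD2 (0.973), LARS2 (0.962), ARMC5 (0.955) and ZHX3 (0.951). For AQP3 they were GRN (r = 0.949), HIRIP3 (0.946), MYH14 (0.943), ARSA (0.941) and CLPTM1 (0.939). For AQP1 they were RPL36A (r = 0.946), MMRN1 (0.933), RPL26 (0.915), DIABLO (0.912) and AMZ2 (0.906). For SLC14A1 the highest values were lower, with LOC102412241 (r = 0.829), PTPRM (0.811), LOC112581834 (0.786), WSB1 (0.785) and LOC112582187 (0.784).

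Among the remaining genes of the channel families, AQP6 was the highest, with a median of 7.31 FPKM and 213 to 420 reads per animal. Its median was above that of AQP1 (2.94 FPKM). Of 8 further aquaporin, urea transporter and Rh genes in the table, AQP2 and AQP6 were tested and neither had a nominal p below 0.05, with log2 fold changes of 0.24 (SE 0.32) and -0.18 (SE 0.19). AQP12B had 33 reads in all animals together, AQP10 had 5 and AQP8 had 1, while MIP and RHAG were listed at 0. RHCE and RHD, also looked up, were not found by symbol.

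Enzymes that make or use urea and ammonia were unequal in level. ARG1, which splits arginine into urea and ornithine, had a median of 59.1 FPKM, and GLUD1, which releases ammonia from glutamate, had 24.4 FPKM. The mitochondrial enzymes that open the urea cycle were near 0, with OTC listed at 0 and CPS1 at 8 reads in all animals together. Of the 10 enzymes 6 were tested, and 0 had a nominal p below 0.05. Their median log2 fold change was 0.07, beside 0.01 over all tested genes. Of all tested genes 1.24% had a nominal p below 0.05, so that 0 is the usual count in this and the following short lists.

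Glycerol, also a substrate of AQP3, AQP7 and AQP9, is handled by a group of 8 genes, of which 7 were tested. PLIN2, a coat protein of lipid droplets, had a median of 154 FPKM, the glycerol kinase gene GK 7.62 FPKM and GPD1L 7.27 FPKM. None had a nominal p below 0.05, and the median log2 fold change was -0.07.

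For tonicity, which regulates several aquaporins, 5 of 7 response genes were tested and 0 had a nominal p below 0.05 (median log2 fold change 0.06). HSPA4L, SGK1 and NFAT5, the last a transcription factor of the osmotic response, had medians of 22.3, 19.9 and 19.1 FPKM. The genes of the complex that anchors AQP4 in other tissues were expressed although AQP4 itself was at 0, with medians of 20.1 FPKM for UTRN, 17.8 FPKM for DAG1 and 7.51 FPKM for SNTB2. Of these 7 genes 5 were tested, 0 had a nominal p below 0.05, and the median log2 fold change was -0.03.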

How the data were processed

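The authors trimmed the reads of stranded total RNA libraries with Trimmomatic 0.39, aligned them with STAR 2.5.2b to the UOA_WB_1 genome and assigned them to genes, by strand, with featureCounts 2.0.0 (versions per the submitters' processing notes). The authors deposited FPKM values, and the tool and gene lengths behind the FPKM are not given in the sources used here. Of 16 columns, 12 were matched to animals by the labels and 4 were not used. Within a gene, the FPKM were whole multiples of a common step (tolerance 0.0001 reads) for all genes above 0 but 1, whose reads were set from the totals. Of the others, 99.9956% gave a whole gene length (tolerance 0.02 bases), so that reads could be worked out. Depth was 10531468 to 12948299 fragments, and 1 read of a gene of median length is worth 0.0326 FPKM.

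The test was limited to genes reaching 42 depth-scaled reads in any animal. It was run with limma 3.58.1 in R 4.3.3 (trended empirical Bayes) on log2(FPKM + 0.01), adjusting p-values by Benjamini-Hochberg across the 12620 genes, and not with a count model, since the deposited unit is FPKM. Genes below this minimum were taken from the same fit on all 22972 genes above 0. Fold changes are on the log2(FPKM + 0.01) scale, so that those of low genes depend on the pseudocount of 0.01. Animals at 0 can enlarge them, as for CNN1, with a log2 fold change of -3.06 beside means of 1.17 (control) and 0.399 FPKM (treated). For RHBG it was 0.43 with this pseudocount and 0.22 with a pseudocount of 1. Single genes were also given a two-sided exact permutation test over all 924 assignments of the animals, whose smallest p is 0.00216. Correlations were tested with 100000 permutations. Marker scores used lists with at least 3 tested genes.

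The member genes and the lists were chosen with earlier results of these data known. Named are the 10 channel genes, list genes with a nominal p below 0.05, up to 3 genes of highest median per list, and the 5 genes most like each tested channel. Other genes named, such as CPS1, OTC, SLC14A2, CNN1, ACTG2, KRT15, TP63, COL17A1 and those at or near 0, were chosen after their values were seen. RHBG correlations and correlations between channel genes were added after seeing the data. Alternatives were pseudocounts of 0.1 and 1, other filters, median ratio scaling, voom on the reads, robust empirical Bayes, a rank-sum test, ratios of means, a smooth muscle covariate, a replicate block and each animal left out. One list gene named by this rule is not reported here. The tests were checked on simulated data. Python 3.11.15, numpy 2.4.6, scipy 1.17.1, pandas 2.3.3 and matplotlib 3.10.9 were used.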

Additional observations from a re-analysis of the deposited data

Results flagged for a closer look

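Within each group of 6 animals, the highest and the lowest FPKM of each channel gene were compared with the nearest other animal by Dixon's criterion. In normally distributed values, chance meets it in about 1 of 20 groups. It was met by 4 values, each of which is a single read in a group that was otherwise at 0. Such a group always meets the criterion, so that the rate of 1 in 20 does not apply to these 4 values. They are AQP7 in control replicate 2 (0.0262 FPKM), AQP7 in treated replicate 5 (0.0263 FPKM), AQP9 in control replicate 4 (0.0454 FPKM) and RHCG in treated replicate 3 (0.0331 FPKM). All 4 are below the 3-read floor of their gene. None of AQP5, AQP3, SLC14A1, AQP1 and RHBG had such a value in either group.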

How the results depend on the processing

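The number of genes with a nominal p below 0.05, 156 in the comparison as reported, was 562 with all genes above 0, 301 with genes of at least 0.1 FPKM in 6 animals, and 142 to 328 with 1 animal left out, the highest without treated replicate 6; the cause was not tested. The number with an adjusted p below 0.05 was 0 in all 21 alternatives. The sample descriptions number the animals from 1 to 6 in each group, while the sample titles give control replicate 6 and the treated animals other numbers. Deviations of log2 FPKM from the group means, over the tested genes, were correlated between control and treated animals. By the descriptions, same-numbered animals had a mean r of 0.211 (range -0.00924 to 0.417), and the other 30 pairs -0.0388. Deviations sum to 0 within a group, so that the second mean follows from the first and is no separate comparison. Of 6 control animals, 3 correlated best with their own number. With this number as a replicate block, 320 genes had a nominal p below 0.05, and no tested channel gene did (lowest p 0.12, AQP3). With 1 animal left out, the log2 fold change was -0.17 to 0.25 for SLC14A1, -0.0998 to 0.45 for AQP1, -0.092 to 0.088 for AQP5, -0.41 to -0.07 for AQP3 and 0.15 to 0.73 for RHBG, and the r of AQP5 with the basal score was 0.772 to 0.904. RHBG changed direction with the smooth muscle covariate (-0.17), the cause of which was not tested. None of these log2 fold changes had a nominal p below 0.05 under any alternative. AQP1 and RHBG differed by a mean log2 of 1.97 in the treated animals alone, against 2.11 over all 12 animals. SLC14A1 had the opposite sign without control replicate 4 or 6 or treated replicate 3, 4 or 6, AQP1 without control replicate 6 or treated replicate 4 or 5, and AQP5 without control replicate 1 or 2 or treated replicate 4 or 6. RHCG, AQP7, AQP11 and AQP4 had at most 1 read in an animal, so that no comparison can be read from them.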

Other observations

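RHBG, which lay under the read minimum, was set against the same 7 marker scores after the data were seen. Its r with the basal epithelial score was 0.806 (permutation p = 0.00136, adjusted p over 7 pairs 0.00703; rho 0.671, permutation p = 0.0201, adjusted p 0.0355). With the suprabasal score r was 0.791 (permutation p = 0.00201, adjusted p 0.00703; rho 0.692, permutation p = 0.0161), and with the fibroblast score it was -0.70 (permutation p = 0.0105, adjusted p 0.0246; rho -0.73, permutation p = 0.00811). Without control replicate 6 and treated replicate 6, the animals farthest from the median basal score, r with that score was 0.522, and without the 2 animals farthest in the other scores it was 0.588 for the suprabasal and -0.51 for the fibroblast score. Within control animals r with the basal score was 0.595 and within treated animals 0.93. For the suprabasal score these values were 0.995 and 0.623, and for the fibroblast score -0.597 and -0.724. The 5 to 40 reads per animal behind RHBG were fewer than those of the other detected channel genes, so that its values carry more counting error. The size of that error was not worked out. The tested genes with levels most like those of RHBG were KIAA1614 (r = 0.913), C3H9orf3 (0.905), CAMK1 (0.905), ARF3 (0.864) and HMCES (0.862).

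Among the 10 pairs of the 5 detected channel genes, AQP5 and AQP3 alone had an adjusted Pearson p below 0.05 (r = 0.764, permutation p = 0.0048, adjusted p = 0.0482; rho 0.706, permutation p = 0.0128, adjusted p = 0.128). Without control replicate 6 and treated replicate 6 their r was 0.276, so that the relation rests on those animals, although r was 0.866 within control and 0.741 within treated animals. SLC14A1 and RHBG, the urea and the ammonia channel, had r = -0.43 over all 12 animals (permutation p = 0.158, adjusted p = 0.395; rho -0.35, permutation p = 0.265), 0.0084 within control and -0.68 within treated animals. In treated replicates 1 and 5 SLC14A1 was at its lowest (14 and 14.8 FPKM) while RHBG was at 1.83 and 1.65 FPKM, and in treated replicate 3, where SLC14A1 was highest (59.5 FPKM), RHBG was at 0.699 FPKM. The difference in this relation between the diets was not tested.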
